A study of Capsicum annuum with 4 samples.

Results

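A set of 147 genes of Chiltepin pepper had almost no reads in green fruits and clear levels in mature fruits. They were chosen from the counts themselves. A gene entered the set when both libraries at 68 days after anthesis (DAA) had at least 5 CPM (the count of a gene for every 1000000 gene counts of that library) while neither library at 20 DAA exceeded 3 counts. Of the 35884 gene models of the reference annotation, 148 met both limits. One of them, the homolog of tomato PG2, was left out because it is among the fruit maturation genes that the study listed (38 identifiers were at hand, and further candidates of the study were not used here). The rule therefore fixed the difference between the stages, and the values of both stages are given below as a description with no test.

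Chiltepin (Capsicum annuum var. glabriusculum) is a wild pepper with small round fruits that are green while immature and red when mature. Fruits at 68 DAA (2 libraries) were compared with fruits at 20 DAA (2 libraries), all from untreated wild-type plants grown in a greenhouse from seeds of a wild population. Each library held the pooled RNA of 6 whole fruits, with pericarp, placenta and seeds together, and the second replicate of each stage came from another collection of fruits. In such a mixture fewer cells of a type and less RNA per cell cannot be told apart, and the tissue in which a member was read was not measured.

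When a pepper fruit ripens, chloroplasts lose chlorophyll and turn into chromoplasts that store red carotenoids, while enzymes of the cell wall loosen the tissue. The seeds inside the fruit mature over the same weeks. Many of these changes rest on genes whose transcript is scarce in green fruit and abundant later, and a gene with practically no transcript at the early stage is the extreme case.

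The gene totals were 12139415 (replicate 1) and 26130664 (replicate 2) at 68 DAA, and between 21370765 and 24771773 at 20 DAA. The limit of 5 CPM therefore asked for at least 61 and 131 counts of these mature libraries, and 3 counts stood for 0.121 and 0.140 CPM in replicates 1 and 2 at 20 DAA. Reference genes chosen from the study's list for the change of colour followed the stage labels. The homolog of SGR1, a protein that starts chlorophyll breakdown, had 3679 and 4357 CPM at 68 DAA, against 16.8 and 21.5 CPM at 20 DAA. That of PSY1, the first enzyme of carotenoid synthesis, had 966 and 1318 CPM at 68 DAA, against 17.3 and 18.5 CPM at 20 DAA. GLK2, a factor that builds chloroplasts in green tomato fruit, had 0.330 and 0.191 CPM at 68 DAA, against 139 and 159 CPM at 20 DAA. The other list genes did not all rise in mature fruits. LeSPL-CNR had 0.741 and 0.230 CPM at 68 DAA, against 70.3 and 82.1 CPM at 20 DAA. FUL2 had 2.88 and 2.79 CPM at 68 DAA, against 82.3 and 94.2 CPM at 20 DAA. Of the 32 list genes tested below, 6 were called higher and 8 lower at 68 DAA.

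The list gene that met the limits, CA.PGAv.1.6.scaffold128.13, is the homolog of PG2, a polygalacturonase that cuts the pectin of the cell wall. It had 103119 and 201559 counts at 68 DAA, against 3 and 0 counts at 20 DAA. Its mean CPM at 68 DAA was rank 5 among all genes. Neither SGR1 nor PSY1 came near the limit, since each kept at least 395 counts in every green library. The files, the paper's list and the reference tables pair no member with a name, so the members are given by their identifiers, with no role.

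The set was small but not faint. Genes with at most 3 counts in both libraries at 20 DAA numbered 13230, and 2966 of them had at least 1 count at 68 DAA, but only 279 reached 1 CPM and 148 reached 5 CPM in both. The members made up 1.21% of the 12114 genes at 5 CPM or more in both libraries at 68 DAA. The rule turned round, with at least 5 CPM in both libraries at 20 DAA and at most 3 counts in both at 68 DAA, took 584 genes, or 4.09% of the 14292 genes at 5 CPM or more at 20 DAA. These 584 genes are called the shut-off genes below.

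Together the members received 374809 and 1032411 counts at 68 DAA, against 107 and 115 counts at 20 DAA. They took 3.09% and 3.95% of all gene counts in replicates 1 and 2 at 68 DAA. All 147 members had counts in both mature libraries by the rule, while 64 and 70 of them had any count in replicates 1 and 2 at 20 DAA. In 56 members both green libraries were at 0, in 48 exactly 1 of the green libraries had a count, and in 43 both had counts. A count of 3, the highest that the rule admits, was reached in at least 1 green library by 23 members. The median level at 68 DAA was 23.2 CPM for the 56 members at 0 in both green libraries and 35.3 CPM for the 91 members with a count at 20 DAA.

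In the edgeR fit across 17160 genes, all 147 members were among the differentially expressed genes (DEGs, with an FDR under 0.01 and at least a 4-fold change) higher at 68 DAA. The same call was made for 8.22% of all genes tested. The rule used this contrast, so nothing is read from the count. The study reported far fewer DEGs for the same contrast in its own fit, and why the numbers differ was not tested. Its analysis also covered libraries of Serrano, a cultivated variety, while the present fit used Chiltepin alone with a quasi-likelihood test. All shares of DEGs given here are those of the present fit. Of the 38 identifiers at hand from the study's list of fruit maturation genes, which are not all of its candidates, 32 could be tested, of which 6 were DEGs higher and 8 were DEGs lower at 68 DAA, beside 8.22% and 18.7% of all genes tested.

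**Figure D1:**
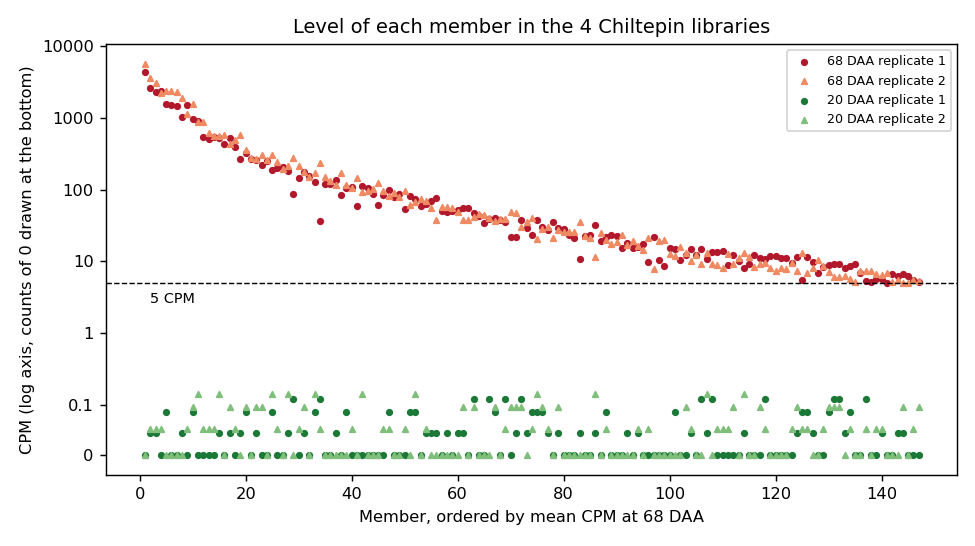
Level of each of the 147 members in the 4 libraries, on a log axis in CPM, with the members ordered from left to right by their mean at 68 DAA (68 DAA in red and orange, 20 DAA in dark and light green) and counts of 0 drawn at the bottom. The mature libraries run down from means of 5063 to 5.29 CPM and the green ones stay at or under 0.140 CPM.

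The levels at 68 DAA covered a wide range. The mean of both mature libraries ran from 5.29 to 5063 CPM with a median of 31.8 CPM, and the middle part of the set, between its quartiles, lay from 11.0 to 127 CPM. The 11943 other genes at 5 CPM or more at 68 DAA had a median of 29.6 CPM and an upper quartile of 63.4 CPM. The members thus had a similar middle and a higher upper part. Per kilobase of coding length, the median was 38.1 CPM per kb in the members and 25.7 CPM per kb in the other genes. That length leaves out untranslated regions, so levels of genes of different length are only roughly comparable on this scale. The members had the shorter coding sequences, with a median of 735 bp against 1179 bp in the other genes. The shut-off genes reached a median of 15.5 CPM at 20 DAA and at most 554 CPM, so none of them came near the highest members.

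There were 10 members at 1000 CPM or more, 32 between 100 and 1000 CPM, 77 between 10 and 100 CPM and 28 under 10 CPM. The top 10 held 63.9% and 66.7% of all member counts in replicates 1 and 2 at 68 DAA. Among all genes, 11 of the 100 with the highest CPM at 68 DAA were members, and 33 of the top 1000. Against a floor of 3 counts per green library, which corresponds to 0.131 CPM on average, the members were at least 40.5-fold to at least 38727-fold higher at 68 DAA, with a median bound of 243-fold.

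The highest member was CA.PGAv.1.6.scaffold1473.25, a model of 1 exon with 357 bp of coding sequence on chromosome 1 (252924702 to 252925058, minus strand, in the coordinates of cv. CM334 version 1.6). It had 53443 and 149573 counts at 68 DAA, or 4402 and 5724 CPM, while both green libraries were at 0. Both mature libraries were far above both green ones, and the level at 68 DAA was at least 38727-fold higher. Its mean was rank 11 among all genes at 68 DAA, and its 14183 CPM per kb was the highest of the members.

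CA.PGAv.1.6.scaffold1473.26 lies next to it (252931742 to 252932098, minus strand) and also has 1 exon and 357 bp of coding sequence. It had 31885 and 94288 counts at 68 DAA, against 1 and 1 count at 20 DAA. At 2627 and 3608 CPM in the mature libraries it was rank 22 among all genes, at least 23844-fold higher than the floor at 20 DAA.

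CA.PGAv.1.6.scaffold546.41 is the only member on chromosome 11 (260916085 to 260917176, plus strand, 4 exons, 582 bp of coding sequence). It had 27551 and 81281 counts at 68 DAA, against 1 and 1 count at 20 DAA. The chromosome with the fewest members for its gene number thus carried the third highest member, with 2270 and 3111 CPM at 68 DAA.

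CA.PGAv.1.6.scaffold524.15, on chromosome 3 (14628341 to 14629704, plus strand, 2 exons, 468 bp of coding sequence), had 28510 and 59074 counts at 68 DAA, against 0 and 1 count at 20 DAA. Its mature libraries, at 2349 and 2261 CPM, were the most alike among the highest 6 members, with a mean of 2305 ± 62.1 CPM (SD, n = 2).

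CA.PGAv.1.6.scaffold1077.20 and CA.PGAv.1.6.scaffold929.13 are both on unplaced scaffolds, pieces of the assembly that have not been assigned to a chromosome. CA.PGAv.1.6.scaffold1077.20 (211514 to 212768 of its scaffold, plus strand, 3 exons, 1074 bp of coding sequence), had 19065 and 62422 counts at 68 DAA, against 2 and 0 counts at 20 DAA. CA.PGAv.1.6.scaffold929.13 (179638 to 180261 of its scaffold, plus strand, 1 exon, 624 bp of coding sequence) had 18683 and 61273 counts at 68 DAA, and 0 in both libraries at 20 DAA. Their means at 68 DAA were close, 1980 and 1942 CPM, and in both the second mature replicate was about 1.52 times the first.

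Short genes gained rank when the level was taken per kilobase. CA.PGAv.1.6.scaffold484.94, a model of 1 exon and 222 bp on chromosome 12 (248507995 to 248508216, minus strand), had 6300 and 14515 counts at 68 DAA, against 1 and 3 counts at 20 DAA. Its 537 ± 25.8 CPM (SD, n = 2) became 2420 CPM per kb, rank 8 among the members. CA.PGAv.1.6.scaffold358.33, on chromosome 2 (156219345 to 156219969, plus strand, 2 exons, 519 bp of coding sequence), had 17578 and 60429 counts at 68 DAA and 0 in both libraries at 20 DAA. It was rank 6 among the members per kilobase, with 3623 CPM per kb.

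At the other end of the range were CA.PGAv.1.6.scaffold2017.1 (chromosome 10, 10 exons), with 63 and 141 counts at 68 DAA, against 0 and 2 counts at 20 DAA, and CA.PGAv.1.6.scaffold64.21 (chromosome 1, 2 exons), with 68 and 143 counts at 68 DAA, against 0 and 1 count at 20 DAA. They averaged 5.29 and 5.54 CPM at 68 DAA. Just outside the limit, CA.PGAv.1.6.scaffold397.72 had 59 and 157 counts at 68 DAA, or 4.86 and 6.01 CPM, and no count at 20 DAA. CA.PGAv.1.6.scaffold10779.1 missed in the same way, with 59 and 202 counts at 68 DAA but none at 20 DAA. Genes lay densely on both sides of each limit. Of the genes with at most 3 counts at 20 DAA, 16 had a lower mature value from 4 to 5 CPM and 14 had one from 5 to 6 CPM. Among the genes at 5 CPM or more at 68 DAA, with the list genes left out, the higher green count was 4 in 30 genes and 3 in 23 genes.

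By the ratio of their CPM, the replicates at 68 DAA agreed less well for the members than for other genes. The log2 CPM of the mature libraries correlated almost equally, at 0.972 over the members and 0.976 over the other genes. The other genes were not split by whether they rise at 68 DAA. In 14 members, or 9.52%, the CPM of the mature libraries were at least 2-fold apart, against 1.66% of the 11943 other genes at 5 CPM or more. The median ratio between the mature libraries was 1.25-fold in the members and 1.16-fold in the other genes. The difference was not limited to low counts. Among genes of 100 CPM or more, 5 of 42 members (11.9%) and 1.27% of 1656 other genes were at least 2-fold apart, and between 5 and 20 CPM it was 4 of 57 members (7.02%) and 1.97% of 4313 other genes. The members were not independent of each other here, since several lie side by side in the genome, but without the 6 adjacent members on chromosome 1 the share was still 9.22%.

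The direction differed too. By CPM over gene totals, replicate 2 was the higher mature library in 55.1% of the members and in 29.9% of the other genes. Among members of 100 CPM or more it was higher in 33 of 42, or 78.6%, against 43.0% of other genes at that level. Of the 14 members at least 2-fold apart, 12 were higher in replicate 2. The median log2 ratio of replicate 2 over replicate 1 was 0.054 in the members and -0.143 in the other genes. The edgeR fit used TMM scaling instead, with factors of 0.962 and 0.868 for replicates 1 and 2 at 68 DAA. Those factors raise replicate 2 relative to replicate 1, so shares that count small differences depend on the scaling. The list of fruit maturation genes had 6 DEGs higher at 68 DAA. By CPM over gene totals, 2 of them (SGR1 and PSY1) were higher in replicate 2 and 4 in replicate 1. Among the 4 was PG2, with 8495 and 7714 CPM in replicates 1 and 2 at 68 DAA. With the TMM factors the small difference of PG2 falls the other way, so its order is not settled. Whether the fruits of both mature collections were equally advanced was not tested.

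**Figure D2:**
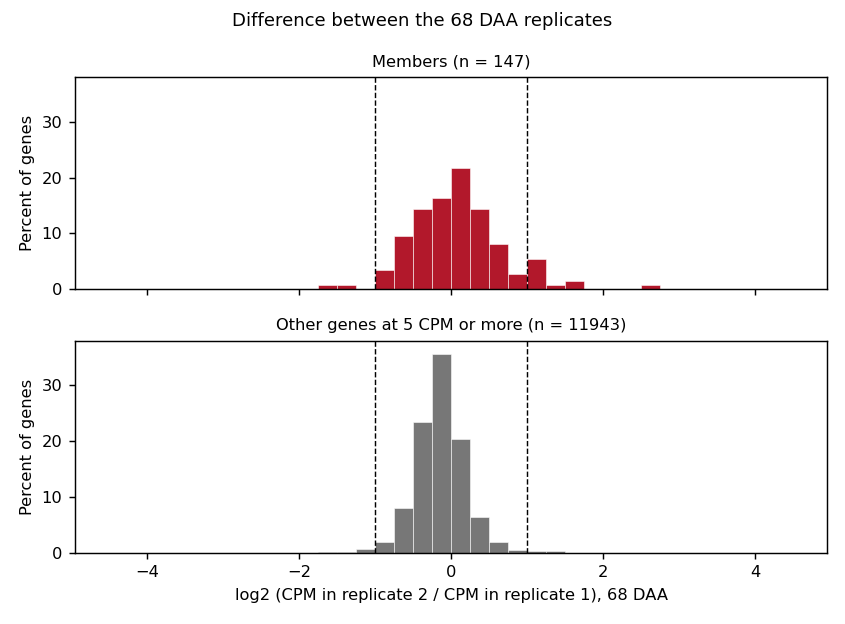
Distribution of the log2 ratio of CPM in replicate 2 over replicate 1 at 68 DAA, in bins of equal width, as the percent of the 147 members (top) and of the 11943 other genes at 5 CPM or more (bottom), with dashed lines at a 2-fold difference. The members spread wider and further to the right, with 9.52% outside the lines against 1.66% of the other genes.

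CA.PGAv.1.6.scaffold625.48, on chromosome 2 (157588244 to 157588528, plus strand, 1 exon, 285 bp), differed most between the mature libraries, with 37.1 and 237 CPM in replicates 1 and 2 at 68 DAA, or 450 and 6180 counts, against 3 and 1 count at 20 DAA. CA.PGAv.1.6.scaffold1271.3 (chromosome 4, 1 exon, 1665 bp of coding sequence) came next, with 10.8 and 35.9 CPM at 68 DAA, against 1 and 0 counts at 20 DAA. Replicate 2 was 6.38 and 3.33 times replicate 1 in these genes.

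The opposite order was most marked in CA.PGAv.1.6.scaffold65.150 (chromosome 6, 3 exons), with 269 and 204 counts at 68 DAA, or 22.2 and 7.81 CPM, and no count at 20 DAA. CA.PGAv.1.6.scaffold206.39 (chromosome 2, 11 exons) had 395 and 305 counts at 68 DAA, or 32.5 and 11.7 CPM, against 1 and 3 counts at 20 DAA. Replicate 2 had 0.352 and 0.359 times the level of replicate 1. These were the only members with a 2-fold excess in replicate 1.

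The neighbouring model CA.PGAv.1.6.scaffold206.40, which is 739 bp away on the same strand and was picked after its values were seen, shared this order, with 2411 and 1319 counts at 68 DAA, or 199 and 50.5 CPM, against 377 and 336 counts at 20 DAA. CA.PGAv.1.6.scaffold65.151, 429 bp from CA.PGAv.1.6.scaffold65.150 on the other strand and picked in the same way, had 143 and 83.6 CPM at 68 DAA and was also higher in replicate 1. Over the 28 pairs of a member with a direct neighbour called higher at 68 DAA, the order of the mature libraries was the same in 19. This order was taken by CPM over gene totals, by which replicate 2 was higher in 29.9% of the other genes. The count of 19 therefore depends on the scaling.

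The gene models of the members were short and had few exons. In the annotation used for counting, every model has 1 transcript, and its exons hold coding sequence only, so lengths are coding lengths and no untranslated region is described. The members had a median of 3 exons and 735 bp of coding sequence over a span of 1624 bp from start to stop. The other genes at 5 CPM or more at 68 DAA had a median of 5 exons and 1179 bp over 4696 bp. Models of 1 exon made up 38 of 147 members (25.9%, exact 95% interval 19.0% to 33.7%) and 12.5% of the other genes. The interval takes the members as independent, although several lie side by side in the genome. Models of 5 exons or more made up 21.8% of the members and 57.5% of the other genes.

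In this respect the members were close to the shut-off genes, of which 27.1% had 1 exon and 27.2% had 5 exons or more, with a median span of 1982 bp. The whole annotation had 24.6% with 1 exon, 34.4% with 5 exons or more and a median span of 2376 bp. The share of members with 1 exon was therefore above that of the other genes read in mature fruits and near that of the whole annotation. The median coding length was lowest in the members, with 735 bp against 1043 bp in the shut-off genes and 873 bp in all models. Coding sequences under 500 bp were found in 24.5% of the members, 18.0% of the shut-off genes, 11.3% of the other genes and 25.5% of all models, so by this share the members were not shorter than the whole annotation.

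**Figure D3:**
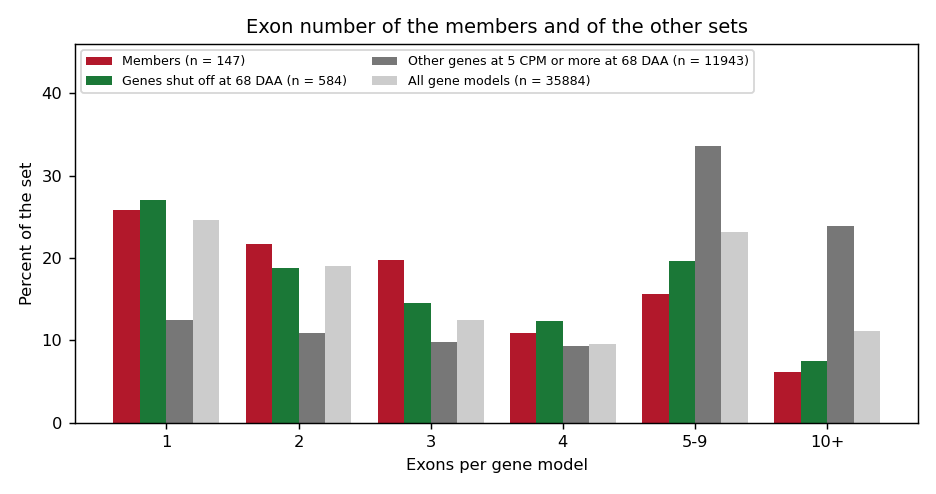
Exon number of the gene models, as the percent of each set, for the members, the shut-off genes (labelled as genes shut off at 68 DAA), the other genes at 5 CPM or more at 68 DAA and all gene models. The share with 1 exon is 25.9% in the members and 12.5% in the other genes, and the bars for 5 to 9 and for 10 or more exons are highest in the other genes.

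Level and exon number had no single order within the set. Per kilobase at 68 DAA, members of 1 exon had a median of 96.5 CPM per kb, those of 2 exons 78.8, those of 3 exons 36.1, those of 4 exons 25.2, those of 5 to 9 exons 14.5 and those of 10 or more exons 23.6 CPM per kb. Of the 38 members of 1 exon, 5 belong to the adjacent genes on chromosome 1, and the median of the remaining 33 was 53.1 CPM per kb, below that of 2 exons. The levels of members with 1 exon ran from 6.92 to 14183 CPM per kb and overlapped those of every other class. Models of 1 exon also had the shortest coding sequences, with a median of 399 bp. Not divided by length, the medians were 42.7 CPM for 1 exon, 46.1 CPM for 2 exons, 16.2 CPM for 3 exons, 15.2 CPM for 4 exons, 24.6 CPM for 5 to 9 exons and 28.4 CPM for 10 or more exons.

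The member with the most exons was CA.PGAv.1.6.scaffold126.20 on chromosome 3 (238961861 to 238970721, plus strand), with 14 exons and 1278 bp of coding sequence. It had 3067 and 6857 counts at 68 DAA, or 253 and 262 CPM, and no count at 20 DAA. The longest span, 28901 bp, belonged to CA.PGAv.1.6.scaffold1140.2 on chromosome 7 (14983465 to 15012365, minus strand, 9 exons), a low member with 63 and 191 counts at 68 DAA but none at 20 DAA. Its longest intron was 11430 bp.

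The annotation gives each model a source tag. The tag ISGAP was on 55.1% of the members, 77.1% of the other genes, 78.8% of the shut-off genes and 44.9% of all models. The tag PROTEIN was on 25.2% of the members, 10.1% of the other genes, 8.22% of the shut-off genes and 21.5% of all models. ABINITIO was on 11.6% of the members, 6.67% of the other genes, 5.14% of the shut-off genes and 21.0% of all models. For PROTEIN the members were thus near the whole annotation, and for ISGAP and ABINITIO they lay between it and the other genes. What the tags stand for was not given in the sources used here.

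The members were spread over all 12 chromosomes, which held 133 of them, and over 11 unplaced scaffolds with the other 14. Chromosome 1 had 24, chromosome 2 had 20 and chromosome 3 had 19. Over the whole annotation there were 4.10 members per 1000 gene models. The density ran from 6.33 per 1000 on chromosome 2 to 0.795 on chromosome 8 and 0.432 on chromosome 11, which had 1 member each among 1258 and 2316 models. The shut-off genes had 16.4 per 1000 models on chromosome 11, close to the 16.4 of chromosome 10, and 11.1 per 1000 on chromosome 8, their lowest value on any chromosome. Whether the sets differ in their spread over chromosomes was not tested. The 1 member of chromosome 8, CA.PGAv.1.6.scaffold1415.33, picked here for its position, had 112 and 135 counts at 68 DAA but none at 20 DAA.

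**Figure D4:**
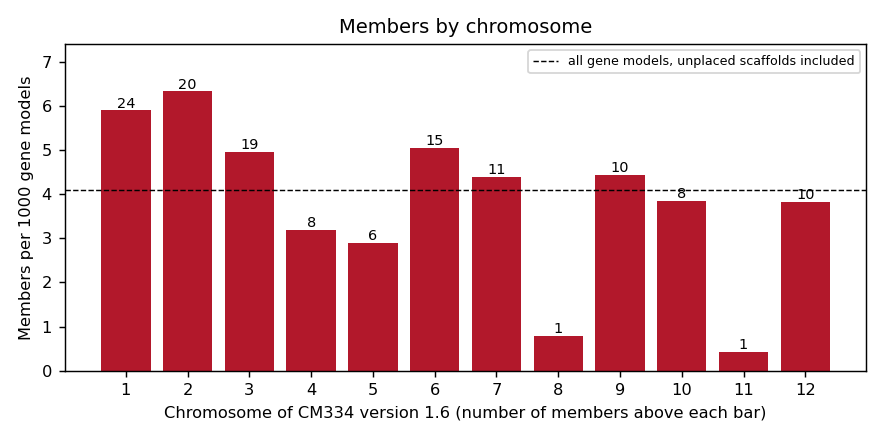
Members per 1000 gene models on each of the 12 chromosomes of CM334 version 1.6, with the number of members above each bar and a dashed line at 4.10 per 1000, the value over all models. Chromosomes 8 and 11 hold 1 member each and stand below all others.

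Along the chromosomes, 80 of the 133 placed members (60.2%) lay in the first or last 10% of the annotated length of their chromosome. Of the shut-off genes 61.4% did, of the other genes 51.1%, and of all models 51.8%. The members were therefore nearer to the shut-off genes than to the other genes in this share, and the difference was not tested.

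Most members stood alone. In the order of gene models along each chromosome or scaffold, 13 members (8.84%) had another member as a direct neighbour, in 4 runs. With 1 model allowed in between there were 18 members in 6 runs. Among the shut-off genes, 50 of 584 (8.56%) were direct neighbours of each other, but in 25 pairs, and none of these runs was longer than 2 genes. A larger set has more adjacent genes through its size alone, and the share was 68.4% in the 11943 other genes. The shares of the 147 members and the 584 shut-off genes are therefore not like for like. The share to be expected for each size was not computed. The longest run of members had 6 genes.

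That run lies on chromosome 1 over 71.5 kb and consists of CA.PGAv.1.6.scaffold1473.25 to CA.PGAv.1.6.scaffold1473.30, all on the minus strand. Coding lengths are 357, 357, 366, 354, 342 and 342 bp, and only CA.PGAv.1.6.scaffold1473.28 has 2 exons. The outer genes, CA.PGAv.1.6.scaffold1473.25, CA.PGAv.1.6.scaffold1473.26 and CA.PGAv.1.6.scaffold1473.30, were above 1000 CPM in both mature libraries. Together the 6 genes made 8581 and 12074 CPM at 68 DAA, which was 27.8% and 30.6% of all member counts, against a total of 5 and 1 counts at 20 DAA.

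Within the run the level was unequal. CA.PGAv.1.6.scaffold1473.27 (252952649 to 252953014) had 1862 and 3981 counts at 68 DAA but none at 20 DAA. CA.PGAv.1.6.scaffold1473.28 (252964043 to 252964797) had 1298 and 3068 counts at 68 DAA, against 2 and 0 counts at 20 DAA. These middle genes, at 153 and 112 CPM on average, were the lowest of the run, and the gap between the highest and the lowest was 44.8-fold per kilobase.

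CA.PGAv.1.6.scaffold1473.29 (252988551 to 252988892) had 3297 and 15281 counts at 68 DAA, against 1 and 0 counts at 20 DAA. CA.PGAv.1.6.scaffold1473.30 (252995849 to 252996190) had 12382 and 49298 counts at 68 DAA, against 1 and 0 counts at 20 DAA. In these genes the mature libraries differed most within the run, by 2.15 and 1.85 times in favour of replicate 2, while CA.PGAv.1.6.scaffold1473.27 had 153 and 152 CPM in replicates 1 and 2.

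The models around the run behaved differently. The adjacent CA.PGAv.1.6.scaffold1473.24 had no count in any library. The next models on that side, CA.PGAv.1.6.scaffold1473.23 and CA.PGAv.1.6.scaffold1473.22, had no count at 68 DAA, against 31 and 28 counts and 159 and 201 counts at 20 DAA. On the other side the nearest model lies 375 kb away. It is CA.PGAv.1.6.scaffold899.34, with 31.1 and 23.1 CPM at 68 DAA, against 12.6 and 11.3 CPM at 20 DAA. Models with counts at 20 DAA but none at 68 DAA thus lay near the run, with CA.PGAv.1.6.scaffold1473.24 in between. These flanking models are named for their position, with their values already seen.

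**Figure D5:**
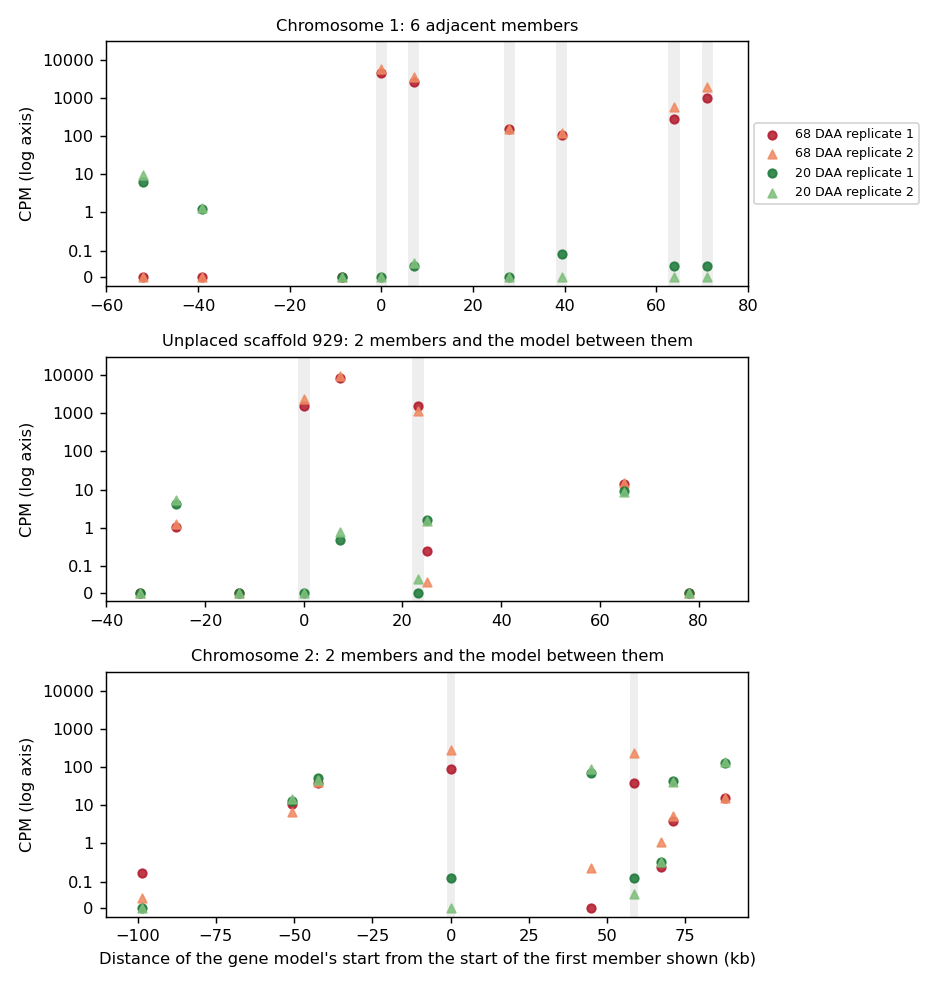
CPM on a log axis of the gene models around 3 groups of members, plotted by the distance in kb of each model's start from the first member, with members on grey bands (68 DAA in red and orange, 20 DAA in dark and light green) and counts of 0 at the bottom. All 6 members on chromosome 1 are high at 68 DAA only, the model between the members on an unplaced scaffold is higher still, and the model between the members on chromosome 2 is high at 20 DAA only.

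The run on chromosome 3 had 3 genes. CA.PGAv.1.6.scaffold1818.7 (1946635 to 1948675, minus strand, 4 exons) had 135 and 208 counts at 68 DAA, and 0 in both libraries at 20 DAA. CA.PGAv.1.6.scaffold1818.8 (1955216 to 1955803, minus strand, 2 exons) had 710 and 3833 counts at 68 DAA, and 0 in both libraries at 20 DAA. CA.PGAv.1.6.scaffold1818.9 (1989307 to 1990295, plus strand, 2 exons) had 11847 and 40964 counts at 68 DAA, against 2 and 2 counts at 20 DAA. These neighbours differed in strand, length and level, from 9.54 to 1272 CPM at 68 DAA.

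Near them, with 1 model in between, CA.PGAv.1.6.scaffold1818.5 had 21 and 19 counts at 68 DAA, against 64274 and 50976 counts at 20 DAA. It was picked after its values were seen and is among the DEGs lower at 68 DAA (log2 fold change -10.88, edgeR quasi-likelihood test with Benjamini-Hochberg adjustment, FDR 1.17e-05). At 2595 and 2385 CPM in the green libraries it was far above the members, and at 1.73 and 0.727 CPM in the mature ones far below most of them. The model directly beside the run on that side, CA.PGAv.1.6.scaffold1818.6, had 1 and 1 count at 68 DAA, against 0 and 1 count at 20 DAA. The direct neighbour on the other side, CA.PGAv.1.6.scaffold2013.1, is among the DEGs higher at 68 DAA. It had 85.7 and 92.8 CPM at 68 DAA, against 10.7 and 10.2 CPM at 20 DAA.

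On its unplaced scaffold CA.PGAv.1.6.scaffold1077.20 is paired with CA.PGAv.1.6.scaffold1077.19, 1846 bp away on the other strand (208239 to 209667, minus strand, 2 exons). CA.PGAv.1.6.scaffold1077.19 had 1439 and 3988 counts at 68 DAA but none at 20 DAA, and averaged 136 CPM at 68 DAA, beside 1980 CPM in CA.PGAv.1.6.scaffold1077.20. The models on either side, CA.PGAv.1.6.scaffold1077.18 and CA.PGAv.1.6.scaffold1077.21, were read at both stages, with 195 and 199 CPM and 59.5 and 47.3 CPM at 68 DAA, against 100 and 102 CPM and 114 and 105 CPM at 20 DAA.

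The fourth run, which the naming rule did not include, was CA.PGAv.1.6.scaffold370.94 and CA.PGAv.1.6.scaffold370.95 on chromosome 2, both of 1 exon and on the minus strand, 56315 bp apart. CA.PGAv.1.6.scaffold370.94 had 1329 and 2722 counts at 68 DAA, against 0 and 1 count at 20 DAA. CA.PGAv.1.6.scaffold370.95 had 286 and 548 counts at 68 DAA but none at 20 DAA. A further member, CA.PGAv.1.6.scaffold370.97, follows after 1 model with no count in any library.

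Several members sat beside a gene that was also higher at 68 DAA. The members had 272 direct neighbours that were not members, of which 132 could be tested. DEGs higher at 68 DAA made up 27 of them (20.5%), against 7.42% of all 17013 tested genes that are not members. DEGs lower at 68 DAA made up 23.5% of these neighbours, against 18.8%. Neighbours of the shut-off genes had 7.02% higher and 24.2% lower. Of the 28 pairs of a member with a neighbour called higher, 21 lay on the same strand, 12 had the same exon number and 10 had coding lengths within 10% of each other, at a median gap of 7596 bp and with no overlap. The neighbour CA.PGAv.1.6.scaffold929.14 is in 2 of these pairs. How often adjacent models in general share strand, exon number or length was not computed, so no likeness is read from these counts. These neighbours were chosen after the counts were seen, and no test was made.

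The most abundant of these neighbours is CA.PGAv.1.6.scaffold358.34, which lies 4956 bp from CA.PGAv.1.6.scaffold358.33 on the same strand and like it has 2 exons and 519 bp of coding sequence. It had 147907 and 423408 counts at 68 DAA, against 42 and 24 counts at 20 DAA, and was rank 3 among all genes at 68 DAA. The member beside it had no count at all at 20 DAA. In replicates 1 and 2 at 68 DAA the pair had 12184 and 16204 CPM in CA.PGAv.1.6.scaffold358.34, against 1448 and 2313 CPM in the member.

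Between the members CA.PGAv.1.6.scaffold929.13 and CA.PGAv.1.6.scaffold929.15 lies CA.PGAv.1.6.scaffold929.14, with 103838 and 248383 counts at 68 DAA, against 12 and 17 counts at 20 DAA. It was rank 4 among all genes at 68 DAA and missed the set through its few green counts. All 3 models have 1 exon and lie on the plus strand, with coding lengths of 624, 648 and 645 bp. CA.PGAv.1.6.scaffold929.15 had 18510 and 29815 counts at 68 DAA, against 0 and 1 count at 20 DAA. On the same scaffold CA.PGAv.1.6.scaffold929.5, another member of 1 exon, had 183 and 243 counts at 68 DAA, against 3 and 0 counts at 20 DAA, and its neighbour CA.PGAv.1.6.scaffold929.4 of the same 606 bp had 2710 and 6769 counts at 68 DAA, against 124 and 76 counts at 20 DAA.

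The last pair on chromosome 2 had the reverse arrangement. CA.PGAv.1.6.scaffold625.48 and CA.PGAv.1.6.scaffold625.50 are members of 1 exon, 285 bp and the plus strand, 58203 bp apart. CA.PGAv.1.6.scaffold625.50 had 1044 and 7192 counts at 68 DAA, against 3 and 0 counts at 20 DAA. CA.PGAv.1.6.scaffold625.49 lies between them, also with 1 exon, 285 bp and the plus strand, and had 0 and 6 counts at 68 DAA, against 1728 and 1936 counts at 20 DAA. Models of the same length side by side were thus read at opposite stages, and the member counts at 20 DAA and those of the middle model at 68 DAA were all at most 6.

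Genes of equal length on the same strand may be near-identical copies, and a read that fits more than 1 place is not counted on any gene. Such reads made up 3.07% and 3.53% of the entries at 68 DAA, against 3.66% and 5.22% at 20 DAA. The sequences of these models were not compared here, so the split of reads between neighbours of equal length is uncertain. No member was a direct neighbour of any of the 38 list genes at hand, and other candidates of the study were not checked.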

How the data were processed

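Counts of 4 RNA-Seq libraries were used. The authors trimmed reads with Trimmomatic 0.36, aligned them to cv. CM334 version 1.6 with HISAT2 2.1.0 and deposited raw counts per gene from HTSeq 0.11.0, with no normalization. The strand setting is not given in the sources used here. The deposited gene models gave exons and positions. The HTSeq categories that name no gene, 31.7% to 38.2% of the entries, were left out. Counting intervals and floors cover counting error only. Depth limits low genes most in replicate 1 at 68 DAA, the smallest library.

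CPM used the summed gene counts. DEGs came from edgeR 4.0.16 (TMM, quasi-likelihood test, average log2 CPM of at least 1, FDR under 0.01 and at least 4-fold), run in R 4.3.3 with limma 3.58.1 and tested on simulated data. DESeq2 1.42.0, other limits, scalings, a block and left-out libraries were alternatives. Python 3.11.15, pandas 2.3.3, numpy 2.4.6, scipy 1.17.1 and matplotlib 3.10.9 did the rest.

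Members and lists were chosen with earlier results of these data known. The named members were the 6 highest in CPM, 3 more per kilobase, the 3 longest runs, those at the limits, the 2 with the largest replicate difference in each direction, the one with most exons and the one with the longest span. Other genes named were picked after their values were seen. The Serrano libraries were not used here.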

Additional observations from a re-analysis of the deposited data

How the results depend on the processing

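Of 56 alternatives, 44 left the result within its limits (1.5 times for counts and spans, the spread between replicates for the median level, the interval for the share of 1 exon) and 12 moved it. The limit of 1.5 times is wide. Member numbers of 104 (minimum of 10 CPM at 68 DAA) and 212 (minimum of 2 CPM), beside 147, were within it. The 44 include the alternatives for members among the DEGs higher at 68 DAA. The rule fixed that outcome, so those are no sign of stability. The number of members was 56, 95 and 271 with a limit of 0, 1 and 10 counts at 20 DAA, and 278 with a minimum of 1 CPM at 68 DAA, so it follows the limits chosen. With libraries thinned to the smallest total it was 210, of which 144 are among the 147. With 1 library left out in turn it lay between 162 and 187, and it could only rise, since this drops a condition of the rule. The median level at 68 DAA was 23.2 CPM with the limit of 0 counts, and 7.15 and 68.7 CPM with minimums of 1 and 10 CPM. Leaving out replicate 1 or 2 at 68 DAA gave 35.9 or 30.3 CPM. Members beside another member numbered 2 with the limit of 0 counts, 32 with 10 counts and 38 with a minimum of 1 CPM. DEGs in the comparison of 68 with 20 DAA numbered 4615, 9904 with no fold limit, and 4151 to 4806 with 1 library left out. Members among the DEGs higher at 68 DAA numbered 137 to 147 with 1 library left out. With replicate 2 at 68 DAA left out, the 10 members missing from the DEGs were below the filter on low values. Scaling by library totals moved the median log2 fold change of all genes by -0.26, and all 147 members were called in that fit.

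The second replicate of each stage came from another collection of fruits. Whether libraries with the same replicate number shared a collection or extraction round is not given in the sources used here. The deviations of the replicates correlated at 0.025 between the stages. A value this low cannot exclude a shared round, so nothing is concluded from it. With a replicate block there were 4665 DEGs, and all 147 members were among them.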
